A study of Mus musculus with 18 samples.

Results

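The mitochondrial respiratory chain and ATP synthase were followed here through every probe set whose single gene symbol begins with Nduf (complex I), is Sdha, Sdhb, Sdhc or Sdhd (complex II), begins with Uqcr (complex III), begins with Cox4 to Cox8 (complex IV) or begins with Atp5 (complex V). The rule found 156 probe sets of the 20380 that belong to 1 gene, in a table of 22690. They stand for 84 of 12393 genes, and 137 of the probe sets had a log2 value above 4 in at least 3 of the 18 samples. The brightest of these stood for its gene, which left 78 genes to test among 7092 in all: 37 of 39 in complex I, 4 of 4 in complex II, 8 of 8 in complex III, 12 of 16 in complex IV and 17 of 17 in complex V. Of the 78, 73 encode subunits. Ndufaf1, Ndufaf3, Ndufaf4 and Ndufaf7 are assembly factors of complex I, which help to build the enzyme without staying in it, and Cox7a2l helps complexes III and IV to join into supercomplexes.

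The 18 samples were aortas of male C57Bl/6 wild type mice. All animals, controls included, had received spironolactone, which blocks the mineralocorticoid receptor, from a subcutaneous pellet at 20 mg/kg/day for 5 days. The aortas were then held in organ culture in DMEM with vehicle or with 100 nM aldosterone, the natural agonist of that receptor, for 2, 4 or 8 h. The 6 groups held 3 samples each, and a sample pooled 3 aortas. An uncultured aorta is not among the groups, so every comparison over time starts from 2 h in culture.

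Complexes I to IV pass electrons from NADH and succinate to oxygen and, except for complex II, pump protons across the inner mitochondrial membrane; complex V, the ATP synthase, lets the protons back and makes ATP. Most subunits are encoded in the nucleus, made in the cytosol and imported, while a few core subunits are encoded in mitochondrial DNA and do not fall under the rule. Contractile smooth muscle of the aorta draws on glycolysis as well as respiration, and brown fat, which surrounds part of the mouse aorta, is unusually rich in mitochondria. Nuclear respiratory factor 1 (NRF1), the ETS factor GABP and the oestrogen-related receptors (ERR), with the coactivators Ppargc1a and Ppargc1b, are known to drive many of these genes.

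To show the regulatory sequence behind members that moved together and those that did not, 6 promoters follow, each 250 bases before to 50 after the RefSeq start site, on build GRCm38.p6 and read in the direction of the gene. Capitals mark exact matches, on either strand, to the 10-base NRF1 palindrome, the ETS core CCGGAAG, the ERR element TCAAGGTCA or the TATA box TATAAA. Ndufb3 had the largest fall from 2 to 8 h and Ndufaf4 was the only member higher at 4 h than at 2 h by the test. Sdhd and Cox6a1 are examples of genes called lower at 4 h in both arms. Their windows are not typical, as 2.78% of the member windows held the ERR element and 6.94% the NRF1 palindrome. Cox7a1 and Cox8b are the tissue-restricted isoforms with the largest falls at 4 h.
Ndufb3, chr1:58586147-58586446, plus strand: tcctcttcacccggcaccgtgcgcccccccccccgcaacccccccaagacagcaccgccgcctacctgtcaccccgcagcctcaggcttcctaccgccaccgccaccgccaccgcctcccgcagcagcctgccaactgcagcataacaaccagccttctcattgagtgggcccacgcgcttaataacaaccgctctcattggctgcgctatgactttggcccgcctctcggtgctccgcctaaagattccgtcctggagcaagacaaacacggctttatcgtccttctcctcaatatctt
Ndufaf4, chr4:24897833-24898132, plus strand: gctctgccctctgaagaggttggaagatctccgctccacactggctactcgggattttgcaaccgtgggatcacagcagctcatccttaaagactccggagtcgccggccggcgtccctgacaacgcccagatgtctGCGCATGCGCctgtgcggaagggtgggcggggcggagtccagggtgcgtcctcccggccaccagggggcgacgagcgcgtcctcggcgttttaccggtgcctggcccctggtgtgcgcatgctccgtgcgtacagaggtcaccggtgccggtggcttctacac
Sdhd, chr9:50603800-50604099, minus strand: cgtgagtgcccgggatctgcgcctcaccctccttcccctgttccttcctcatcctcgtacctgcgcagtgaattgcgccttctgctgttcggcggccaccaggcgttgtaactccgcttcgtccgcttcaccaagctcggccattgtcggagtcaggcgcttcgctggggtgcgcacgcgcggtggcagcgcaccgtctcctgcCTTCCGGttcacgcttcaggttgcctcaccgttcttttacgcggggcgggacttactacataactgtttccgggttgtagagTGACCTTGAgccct
Cox6a1, chr5:115348909-115349208, minus strand: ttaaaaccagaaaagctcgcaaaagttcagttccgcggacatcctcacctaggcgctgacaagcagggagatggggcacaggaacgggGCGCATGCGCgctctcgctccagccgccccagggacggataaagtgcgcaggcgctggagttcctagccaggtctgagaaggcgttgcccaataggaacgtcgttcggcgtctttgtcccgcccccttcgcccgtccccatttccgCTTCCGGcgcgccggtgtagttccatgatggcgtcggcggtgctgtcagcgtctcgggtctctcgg
Cox7a1, chr7:30183921-30184220, plus strand: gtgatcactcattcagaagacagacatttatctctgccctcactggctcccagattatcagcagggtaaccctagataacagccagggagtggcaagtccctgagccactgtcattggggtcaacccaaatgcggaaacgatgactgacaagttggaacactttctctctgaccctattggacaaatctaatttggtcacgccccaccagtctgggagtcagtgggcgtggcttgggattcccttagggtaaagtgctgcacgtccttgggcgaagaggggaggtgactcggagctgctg
Cox8b, chr7:140900397-140900696, minus strand: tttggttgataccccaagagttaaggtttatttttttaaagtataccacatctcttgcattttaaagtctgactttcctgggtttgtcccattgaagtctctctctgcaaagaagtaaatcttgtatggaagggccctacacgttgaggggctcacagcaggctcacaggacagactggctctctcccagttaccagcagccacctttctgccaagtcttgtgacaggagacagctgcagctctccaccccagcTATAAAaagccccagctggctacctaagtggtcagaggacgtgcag

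In these windows the NRF1 palindrome began at position -113 from the start site in Ndufaf4 and at -162 in Cox6a1. The ETS core began at -16 in Cox6a1 and at -46 in Sdhd, where the ERR element began at 37. The TATA match in Cox8b began at 5, downstream of the annotated start, and the windows of Ndufb3 and Cox7a1 held none of the motifs. Promoters were matched by gene identifier for 67 of the 78 genes, as 72 windows, and compared with all 32851 windows of the same length. The ETS core was in 25% of the member windows and 8.86% of all windows, and the NRF1 palindrome was in 6.94% and 0.971%. The YY1 core AAGATGGCG was in 8.33% against 1.4%, the ERR element in 2.78% against 0.423%, and the TATA box in 11.1% against 13.6%. A match describes letters only and is no evidence of binding.

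Respiratory chain transcripts fell together between 2 and 4 h in both arms. With vehicle, 61 of the 78 genes were lower at 4 h than at 2 h and 1 was higher, where 25.6% of all genes tested were lower and 14.6% higher (limma, adjusted p under 0.05 over 7092 genes). The median log2 difference over members was -0.61, a level 0.655 of that at 2 h, against -0.13 over all genes. With aldosterone, 64 were lower and 1 higher, where 21.3% of all genes were lower and 17.3% higher, and the medians were -0.71 and -0.04. The 64 include Ndufaf3, which passed the filter only through the aldosterone samples at 2 h, so its fall was built into its selection. These comparisons share no samples between the arms, but their calls share 1 estimate of spread per gene over all 18 samples. In both arms 56 genes fell, which is 91.8% of those that fell with vehicle and 87.5% of those that fell with aldosterone. Of all members, 78.2% fell with vehicle and 82.1% with aldosterone, so much of this overlap follows from those shares alone. Over all genes, of which 25.6% fell with vehicle and 21.3% with aldosterone, 1193 fell in both, 65.8% and 79.1% of the corresponding lists. The 3 samples at 4 h all lay below the 3 at 2 h for 60 members with vehicle (28.8% of all genes) and for 73 with aldosterone (30.9% of all genes). The 73 also include Ndufaf3. A fit on the 6 samples of the vehicle comparison alone, which has less information on the spread, called 20 members and 11.4% of all genes as lower. In bulk tissue, fewer cells of a type and less RNA per cell cannot be told apart.

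The fall reached every complex. Complex II, the succinate dehydrogenase that links the citric acid cycle to the chain, fell in all 4 of its genes in both arms, with medians of -0.82 with vehicle and -0.94 with aldosterone. Complex I, where NADH enters, fell in 30 and 32 of 37 genes with medians of -0.66 and -0.76. The 32 include Ndufaf3, whose fall was built into its selection. Complex III, which passes electrons to cytochrome c, fell in 6 of 8 genes in each arm (medians -0.61 and -0.84). Complex IV, cytochrome c oxidase, fell in 10 and 9 of 12 (medians -0.52 and -0.56). Complex V fell in 11 and 13 of 17 (medians -0.49 and -0.57). The differences between complexes were not tested.

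**Figure D1:**
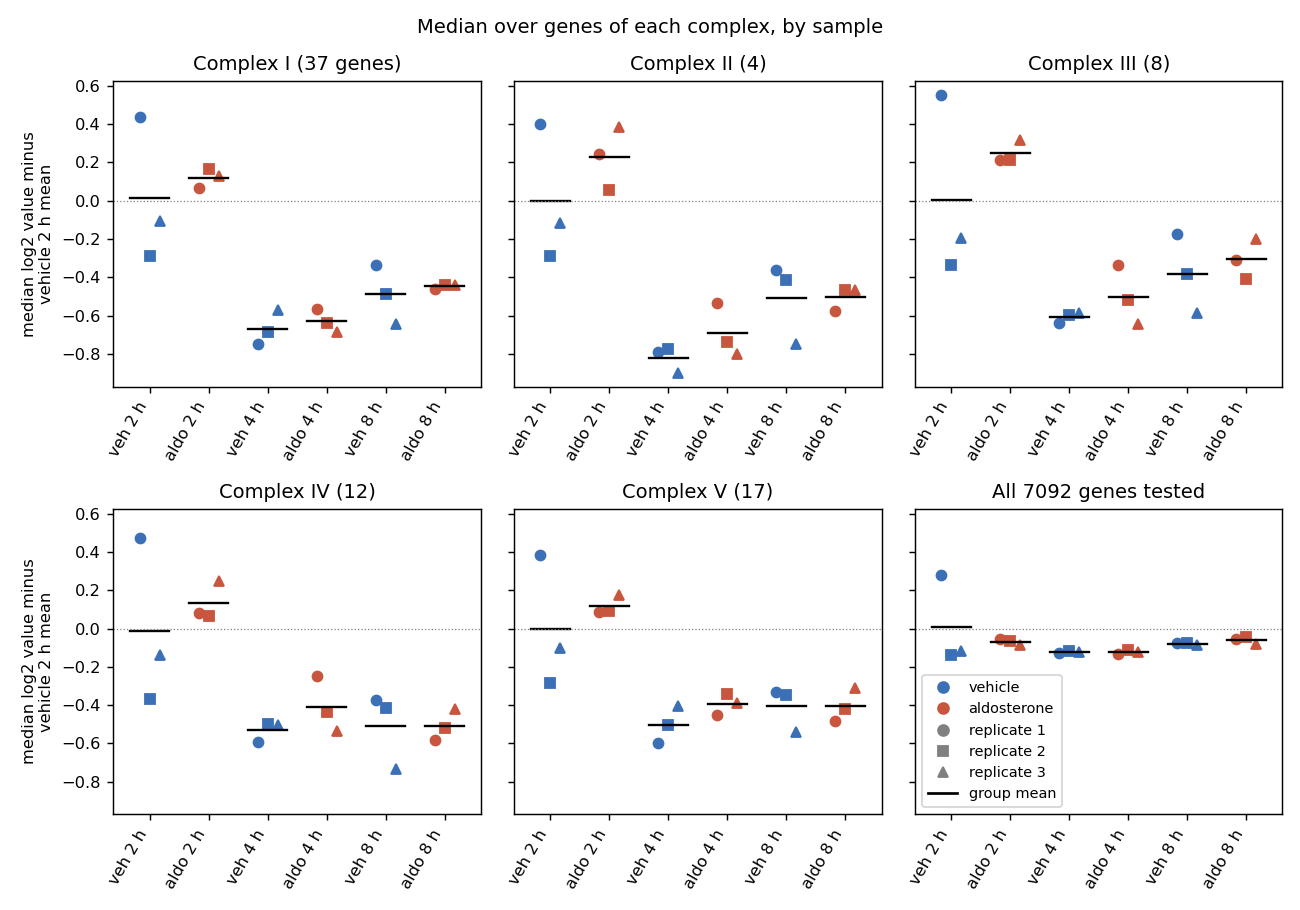
Median over the genes of each complex in each sample, after the vehicle 2 h mean of each gene was subtracted (log2, vertical axis), for the 6 groups of 3 pools, with all 7092 genes tested in the last panel; lines are group means. In each complex the samples of 4 and 8 h lie below the aldosterone 2 h samples. Over all members the vehicle 2 h samples reach from -0.29 to 0.44, and replicate 1 is the highest.

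1 library bears on all values at 2 h with vehicle. Vehicle 2 h replicate 1 had a median log2 value of 4.42 over all probe sets, against 4.01 to 4.09 in the other 17 samples. In it, 908 of 7092 genes and 16 of 78 members differed by more than 1 from the mean of the other 2 vehicle samples at 2 h, and the members' median lay 0.66 above that mean. A few members went the other way: Uqcrb, a complex III subunit, was 10.34 in it and 12.61 and 12.80 in the others, and Cox7a2, the widely expressed form of complex IV subunit VIIa, was 10.65 against 11.91 and 12.05. Without this library, 53 members were lower and 1 higher at 4 h with vehicle (median -0.47), where 19.7% of all genes were lower and 20.1% higher. In that fit Cox7a2 (-0.33) and the complex I subunit Ndufb10 (-0.52) passed the test as lower, though their differences over all samples were 0.12 and 0.06.

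The excess of 3' over 5' signal (log2) in the Gapdh control probe sets was 0.56 to 0.64 at 2 h with vehicle, 0.49 to 0.79 at 4 h and 0.36 to 0.53 at 8 h. With aldosterone it was 0.57 to 0.67, 0.46 to 0.75 and 0.45 to 0.49. In the beta-actin control it was 1.63 in vehicle 2 h replicate 1, and 2.09 and 2.11 in the other vehicle samples at 2 h. The lowest beta-actin value at 8 h with vehicle was 1.51. The part of this excess in the results was not tested. Centring each sample on its median moved the median of all genes from -0.13 to -0.03 for 4 h against 2 h with vehicle and that of the members from -0.61 to -0.51, with 59 members lower and 1 higher. No 2 samples had identical values, and correlations between samples ran from 0.838 to 0.994. All 7 smooth muscle markers on the list were measured, with Acta2 between 13.80 and 14.94 in every sample. Their summed level, as log2, was 15.58 to 16.08 at 2 h, 15.72 to 15.85 at 4 h and 15.14 to 15.38 at 8 h with vehicle. With aldosterone it was 16.11 to 16.18, 15.65 to 15.92 and 15.00 to 15.22, with no overlap between the times. In that arm Smtn went the other way, at 10.36, 10.65 and 10.60 at 8 h against 10.29, 10.21 and 10.29 at 2 h. The other smooth muscle markers were lower at 8 h than at 2 h in that arm. Fibroblast markers (5 of 5) summed to 13.78 to 14.37 at 2 h and 13.57 to 13.73 at 4 h with vehicle. With aldosterone they overlapped (13.86 to 14.03 and 13.49 to 13.99). Macrophage markers (5 of 5) summed to 10.35 to 10.57 and 9.64 to 10.09 with aldosterone, and overlapped with vehicle (10.16 to 11.14 and 9.79 to 10.21). Of these, Csf1r, Adgre1 and Lyz2 were lower at 4 h with aldosterone and Cd68 overlapped. Cd14 was higher (9.06, 8.58 and 8.76 against 8.39, 8.10 and 8.44). In the vehicle arm the summed level of all 6 endothelial markers lay between 10.18 and 11.19 at 2 h and between 9.05 and 9.66 at 4 h. That of the 4 of 6 white adipocyte markers on the array, of which 3 passed the filter, lay between 14.03 and 14.60 and between 13.34 and 13.70. The part of such shifts in the members' fall was not tested.

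Among complex I subunits, Ndufb3, an accessory subunit of the membrane arm, had the largest fall from 2 to 8 h in both arms. Its log2 values were 10.48, 9.68 and 9.97 with vehicle and 9.995, 10.01 and 9.98 with aldosterone at 2 h. At 4 h they were 8.82, 8.94 and 8.90 with vehicle and 8.83, 8.93 and 8.94 with aldosterone, and at 8 h they were 8.64, 8.48 and 8.16, and 8.40, 8.38 and 8.43. The 3 times did not overlap in either arm, and the gene fell at each step. The difference from 2 to 8 h was -1.62 ± 0.16 (SE, n = 3 pools per group) with vehicle, 3.06-fold, and -1.59 ± 0.16 with aldosterone (limma adjusted p 1.5e-07 and 1.91e-07). Ndufa6, an accessory subunit of the peripheral arm, fell by 1.34 ± 0.19 and 1.44 ± 0.19 over the same interval. Ndufc1, Ndufa13 and Ndufb11, accessory subunits of the membrane domain, fell by 1.32, 0.94 and 0.75 with vehicle and by 1.11, 1.13 and 1.05 with aldosterone.

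The 4 complex I assembly factors each took their own course. Ndufaf4, which acts early in building the peripheral arm, was the only member higher at 4 or at 8 h than at 2 h by the test, in both arms. It was 7.67, 6.94 and 6.94 with vehicle and 7.28, 7.24 and 7.03 with aldosterone at 2 h. At 4 h it was 8.80, 8.80 and 8.996, and 8.85, 8.72 and 9.09; at 8 h it was 8.87, 8.99 and 8.98, and 8.93, 8.89 and 8.68. Every sample at 4 or 8 h lay above every sample at 2 h, and its rise from 2 to 4 h was 1.68 ± 0.17 with vehicle and 1.70 ± 0.17 with aldosterone (3.21-fold and 3.26-fold, limma adjusted p 1.2e-06 and 1.18e-06). The other probe set of the gene rose by 1.18 and 0.89. Ndufaf1 did not pass the test at 4 h in either arm (-0.13 and -0.40, adjusted p 0.699 and 0.219), and Ndufaf7, a methyltransferase that modifies a core subunit, fell with vehicle by 1.09 ± 0.27 and was -0.30 ± 0.27 with aldosterone, the latter with adjusted p 0.412. Ndufaf3 was dim: its only values above 4 were the aldosterone samples at 2 h, 5.21, 5.34 and 4.25. It was called lower at 4 and 8 h with aldosterone, at least 1.91-fold, but it passed the filter only through the group it fell from, so that this difference was built into its selection and supports nothing.

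Complex II is the one complex made wholly of nuclear-encoded subunits. Sdhb, the iron-sulphur subunit, was 10.37, 9.28 and 9.41 with vehicle and 9.93, 9.75 and 10.04 with aldosterone at 2 h, and 8.77, 8.76 and 8.77, and 9.04, 8.74 and 8.66, at 4 h. Both arms were apart between these times, with falls of 0.92 ± 0.20 and 1.09 ± 0.20 (limma adjusted p 0.00193 and 0.00055). Sdhc, a membrane anchor, fell by 1.15 ± 0.19 and 1.05 ± 0.19, and the flavoprotein Sdha fell by 0.71 ± 0.15 and 0.83 ± 0.15. Sdhd, the other anchor, fell by 0.61 ± 0.18 and 0.59 ± 0.18; its vehicle call was lost without vehicle 2 h replicate 1, and its aldosterone call when replicate 3 at 2 h, or either of replicates 2 and 3 at 4 h, was left out of that arm. By 8 h the vehicle differences of Sdha (-0.36), Sdhb (-0.60) and Sdhd (-0.39) were smaller, with adjusted p of 0.0472, 0.0179 and 0.0793. The call of Sdha at 8 h with vehicle was lost in 18 of 29 alternative settings, among them the fits without vehicle 2 h replicate 1, vehicle 2 h replicate 3, vehicle 8 h replicate 2 or vehicle 8 h replicate 3. That of Sdhb was lost in 4, among them the fits without vehicle 2 h replicate 1 or vehicle 8 h replicate 3. With aldosterone all 4 genes remained below their 2 h level, by 0.65, 0.87, 0.89 and 0.56 for Sdha, Sdhb, Sdhc and Sdhd.

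In complex III, Uqcrq, the ubiquinone-binding subunit VII, fell and came back. It was 8.45, 7.48 and 7.75 with vehicle and 8.14, 8.16 and 8.26 with aldosterone at 2 h. It went to 6.70, 7.22 and 7.25, and 7.30, 7.15 and 6.91, at 4 h, and to 8.61, 8.22 and 7.96, and 8.10, 8.41 and 8.35, at 8 h. The 4 h samples lay below all others in both arms, with a fall of 0.83 ± 0.22 and 1.07 ± 0.22 and a rise from 4 to 8 h of 1.20 ± 0.22 and 1.17 ± 0.22 (limma adjusted p 0.000428 and 0.000563 for the rise). Uqcrfs1, the Rieske iron-sulphur protein, fell by 0.81 ± 0.20 in each arm at 4 h. The core protein Uqcrc1 fell with aldosterone at 4 h (-0.92 ± 0.21) and was -0.42 ± 0.21 with vehicle, where adjusted p was 0.123, and it rose from 4 to 8 h in both arms, by 0.72 and 0.81. Uqcr11, a small accessory subunit, and Uqcrh, the hinge protein, passed the test at 8 h with vehicle, at -0.84 and -0.48. Both calls were lost without vehicle 2 h replicate 1 or vehicle 8 h replicate 3, and that of Uqcr11 also without vehicle 8 h replicate 2. Uqcrb, described above, passed the test at neither time in either arm, with vehicle differences of 0.53 and 0.51 at 4 and 8 h. Without vehicle 2 h replicate 1, Uqcrb was called lower with vehicle at both times, at -0.26 and -0.28 (limma adjusted p 0.0257 and 0.0102). In that fit all 8 complex III genes were called lower at 4 h with aldosterone, where 1897 of all 7092 genes were. That library is not in the aldosterone arm, so the differences there kept their values (median -0.84). Only the shared estimate of spread changed.

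Several complex IV subunits exist as a widely expressed isoform and isoforms restricted to certain tissues, among them Cox7a1 and Cox8b of muscle and brown fat. The widely expressed subunits fell by modest amounts. Cox6a1 was 14.09, 13.54 and 13.73 with vehicle and 13.79, 13.79 and 13.85 with aldosterone at 2 h, and 13.41, 13.38 and 13.34, and 13.53, 13.36 and 13.36, at 4 h; the groups did not overlap, and the differences were -0.41 ± 0.12 and -0.39 ± 0.12. Cox4i1 fell by 0.46 ± 0.13 and 0.56 ± 0.13, Cox6b1 by 0.53 ± 0.15 and 0.81 ± 0.15, and Cox8a by 0.90 ± 0.32 and 0.88 ± 0.32. The call of Cox8a with vehicle was lost without vehicle 2 h replicate 1, without vehicle 4 h replicate 1 and without vehicle 4 h replicate 2, and its call with aldosterone was lost without any 1 of the 6 samples compared. Cox7a2 was 0.12 ± 0.23 with vehicle and -0.44 ± 0.23 with aldosterone at 4 h, where adjusted p was 0.725 and 0.15.

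Cox7a1 and Cox8b had the largest falls of all members at 4 h. Cox7a1 was 8.32, 6.89 and 6.97 with vehicle and 7.72, 8.15 and 8.75 with aldosterone at 2 h. It was 5.45, 5.74 and 4.52, and 6.77, 5.04 and 4.57, at 4 h, and 6.82, 6.76 and 5.75, and 6.77, 6.60 and 6.75, at 8 h. The 2 h and 4 h groups did not overlap in either arm, and the falls were 2.16 ± 0.50 with vehicle and 2.75 ± 0.50 with aldosterone (4.46-fold and 6.71-fold, limma adjusted p 0.00254 and 0.000413). From 4 to 8 h the differences were 1.20 ± 0.50 and 1.25 ± 0.50, with adjusted p of 0.0667 and 0.0577. Cox8b fell by 1.67 ± 0.47 and 1.77 ± 0.47 at 4 h (3.19-fold and 3.42-fold), from 9.66, 7.82 and 8.16 to 6.50, 7.15 and 6.97 with vehicle and from 8.85, 8.82 and 9.65 to 8.34, 6.90 and 6.76 with aldosterone. With Ndufaf4 these were the members with the highest spread over the 18 samples. The muscle form Cox6a2 (2.20 to 2.48), the lung form Cox4i2 (2.41 to 3.03) and the testis forms Cox6b2 (2.31 to 3.10) and Cox8c (1.62 to 1.69) stayed at or under 4 in every sample and were not tested. Ndufb1 (3.51 to 3.63) and Ndufaf5 (3.05 to 4.64) were not tested either.

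**Figure D2:**
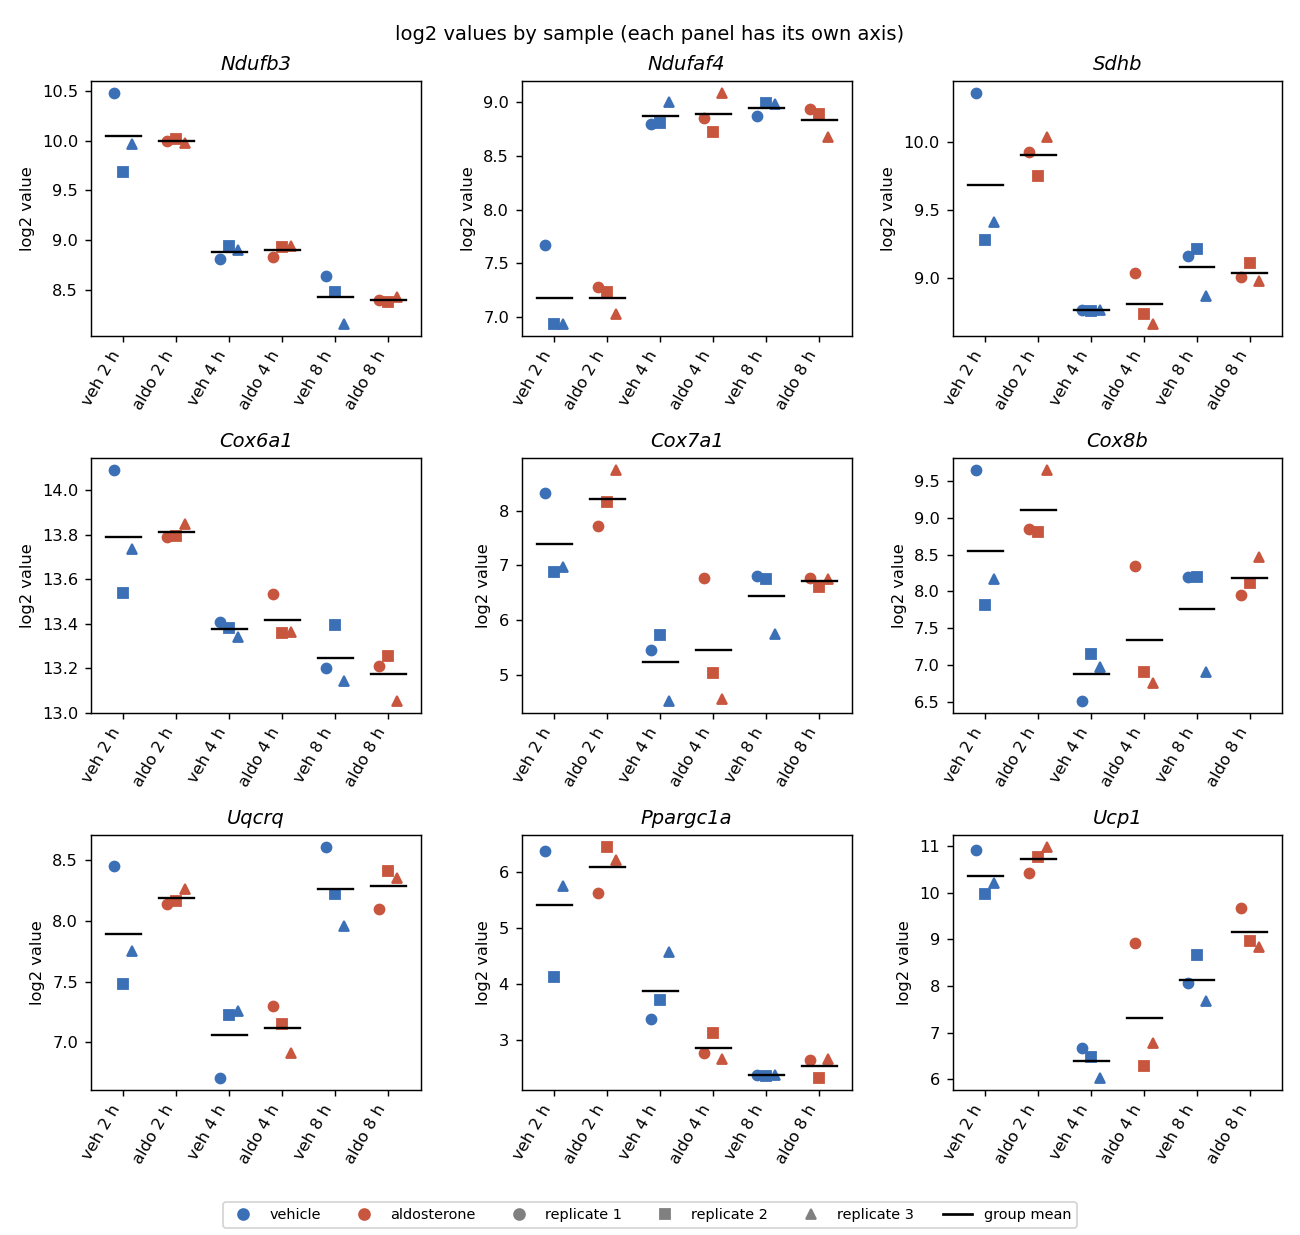
log2 values in each of the 18 samples (vertical axes, scaled per panel) for 7 members and for the coactivator Ppargc1a and the brown fat gene Ucp1, by group, with lines at group means. Ndufaf4 is the only member shown that is higher at 4 and 8 h than at 2 h, and Cox7a1 and Ucp1 are lowest in the 4 h samples other than aldosterone replicate 1.

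Of the brown fat markers, Ucp1 and Cidea were lower at 4 h and Dio2 was higher. Ucp1, the uncoupling protein that defines brown adipocytes, was 10.91, 9.97 and 10.21 with vehicle and 10.42, 10.78 and 10.99 with aldosterone at 2 h. At 4 h it was 6.68, 6.47 and 6.02, and 8.92, 6.28 and 6.78; at 8 h it was 8.06, 8.67 and 7.67, and 9.67, 8.96 and 8.84. The groups at 2 and 4 h did not overlap, and aldosterone 4 h replicate 1 was the highest sample of its group for Ucp1, Cox7a1 and Cox8b alike. Of the 6 brown adipocyte markers listed, 5 were on the array and 4 passed the filter. The summed level of the 5 on the array, as log2, was 11.13 to 12.23 and 11.68 to 12.16 at 2 h, vehicle first. It was 10.36 to 10.85 and 10.19 to 11.32 at 4 h, and 10.73 to 11.54 and 11.06 to 11.47 at 8 h. Cidea, a lipid droplet protein, was also lower at 4 h than at 2 h with vehicle (7.94, 8.25 and 7.75 against 10.998, 9.45 and 9.62), whereas Dio2, which activates thyroid hormone, was higher at 4 h (10.46, 9.81 and 10.59) and at 8 h (11.17, 10.98 and 10.33) than at 2 h (9.497, 9.01 and 8.89) in that arm. The part of brown fat RNA in the members' fall was not tested. All 6 skeletal muscle markers were at or under 4 in every sample. Of the cardiac markers 3 of 6 passed the filter. The summed level of all 6 was highest in aldosterone 8 h replicate 3 (8.73, where the lowest of the other samples of that group was 6.44).

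In complex V several genes did not pass the test. Atp5o, the stalk protein that confers sensitivity to oligomycin, fell by 0.94 ± 0.27 and 0.75 ± 0.27 at 4 h, and the rotor shaft Atp5c1 by 0.79 ± 0.19 and 0.60 ± 0.19. Atp5h, a subunit of the peripheral stalk, had a tight course: 12.61, 12.35 and 12.41 with vehicle and 12.49, 12.55 and 12.51 with aldosterone at 2 h; 11.86, 11.91 and 12.05, and 11.75, 11.86 and 11.81, at 4 h; and 11.57, 11.71 and 11.56, and 11.74, 11.69 and 11.59, at 8 h. Its samples at 2 h lay above all later ones, and its difference from 2 to 8 h was -0.84 ± 0.09 in each arm (limma adjusted p 3.97e-07 and 4.42e-07). Atp5k, a small membrane subunit, fell by 0.77 ± 0.12 and 0.94 ± 0.12 over that interval. The catalytic subunit Atp5b was -0.54 ± 0.21 and -0.46 ± 0.21 at 4 h, with adjusted p of 0.053 and 0.1. Of the 3 genes that encode the same mature c-ring protein, Atp5g2 fell by 0.65 ± 0.15 and 0.995 ± 0.15, while Atp5g1 was -0.24 and 0.08 and Atp5g3 was -0.28 and -0.12, none of the latter passing the test. Atp5md, Atp5g3 and Atp5mpl, the first and last small membrane subunits, had the lowest spread of all members over the 18 samples.

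**Figure D3:**
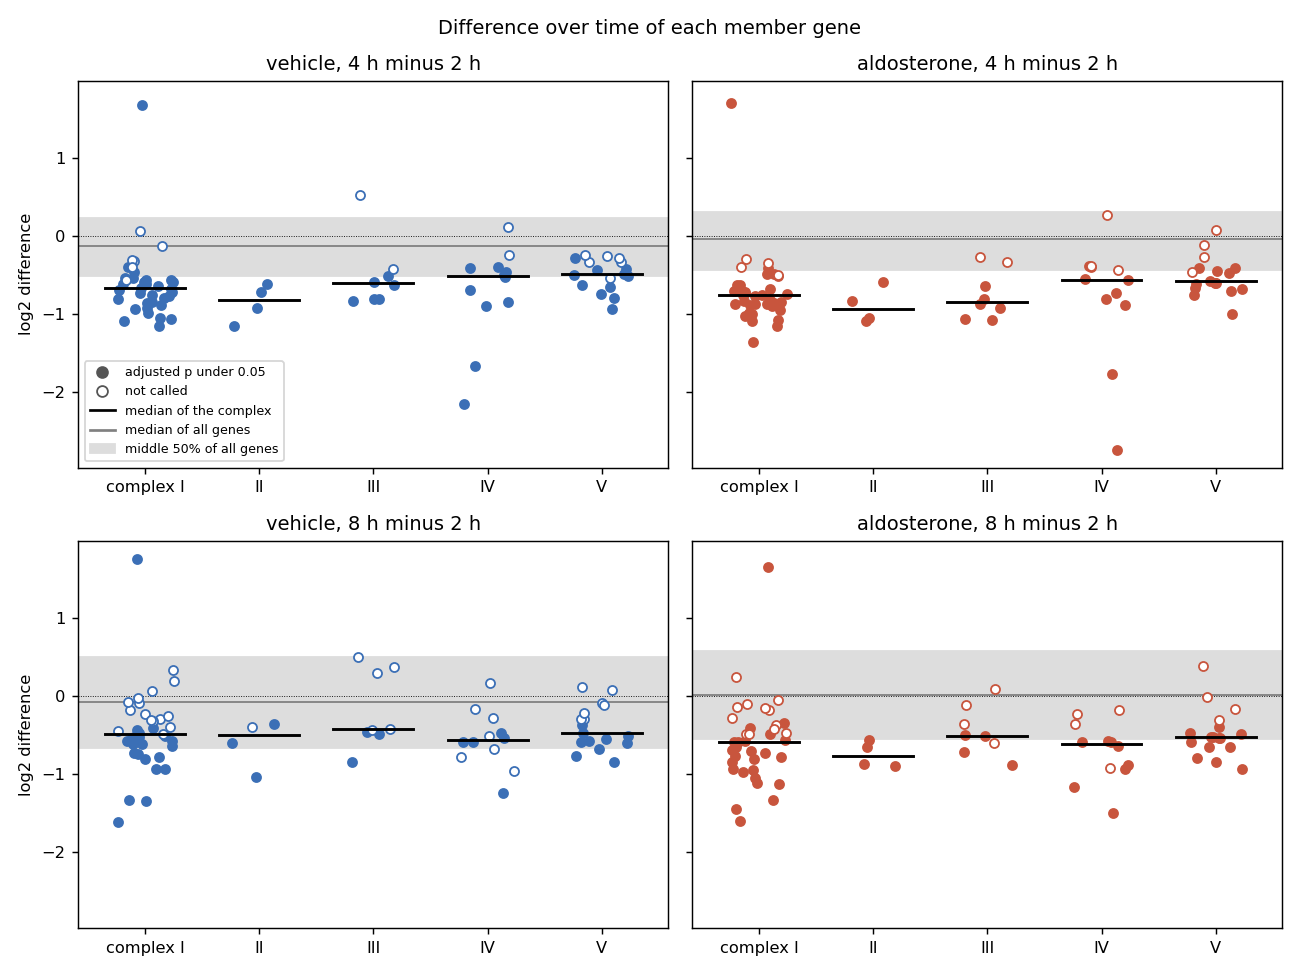
log2 difference of each of the 78 genes (points) by complex, for 4 h minus 2 h and 8 h minus 2 h in each arm; filled points passed adjusted p under 0.05, black lines are medians of a complex, and the grey line and band are the median and middle 50% of all 7092 genes. In the upper panels most points lie under the band and Ndufaf4 is the only filled point above 0.

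Fewer members were called lower than at 2 h by 8 h than by 4 h. Against 2 h, 42 genes were lower and 1 higher with vehicle, where 31.9% of all genes were lower and 26.6% higher. With aldosterone 53 were lower, Ndufaf3 included, and 1 was higher, where 27.3% were lower and 29.2% higher. The medians over members were -0.48 and -0.58, against -0.07 and 0.02 over all genes. These comparisons use the same 2 h samples as those at 4 h. Of the 61 genes that fell by 4 h with vehicle, 40 were lower at 8 h as well, and of the 64 with aldosterone, 52 were. The same share was not counted over all genes that fell by 4 h, so these counts cannot be called particular to the members. From 4 to 8 h, 8 of the 61 rose, 5 fell further and 48 were not called. Of the 64, 8 rose, 4 fell further and 52 were not called. Over all genes, 20.7% and 21% rose and 17% and 16.6% fell at this step, vehicle first. The 4 h samples are shared with the step that picked these genes. Without vehicle 2 h replicate 1, 33 were lower and 4 higher at 8 h with vehicle, with a median of -0.27. In that fit 2030 of all 7092 genes were lower and 2297 higher, with a median of 0.02.

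Between 4 and 8 h, 10 genes rose and 5 fell with vehicle, where 20.7% of all genes rose and 17% fell. With aldosterone 9 rose and 4 fell, where 21% rose and 16.6% fell, so most members did not pass the test at this step. The genes given here as called in both arms were chosen after their values were seen. The complex I genes Ndufa10, Ndufab1 (the acyl carrier protein) and Ndufs4, the complex III genes Uqcrc1 and Uqcrq and the complex V gene Atp5g2 rose in both arms. Ndufs4, an accessory subunit needed for a stable peripheral arm, rose by 0.80 ± 0.18 and 0.70 ± 0.18, and Ndufab1 by 0.87 ± 0.22 and 0.58 ± 0.22. Ndufa4, named for complex I but now placed in complex IV, rose with vehicle by 0.86 ± 0.30 and was 0.37 ± 0.30 with aldosterone, with adjusted p 0.356. Ndufb3, Ndufa13 and Ndufb11 fell further in both arms, and Cox7a2l, whose difference from 2 to 8 h was -1.24 ± 0.16 and -1.16 ± 0.16, fell further with aldosterone (-0.44 ± 0.16) and was -0.39 ± 0.16 with vehicle, with adjusted p 0.0652. The number of calls at this step ranged from 6 to 29 with vehicle and from 5 to 24 with aldosterone when single samples were left out: the lowest counts came on leaving out vehicle 4 h replicate 1 and aldosterone 8 h replicate 2, respectively, and the highest in both arms on leaving out vehicle 2 h replicate 1.

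**Figure D4:**
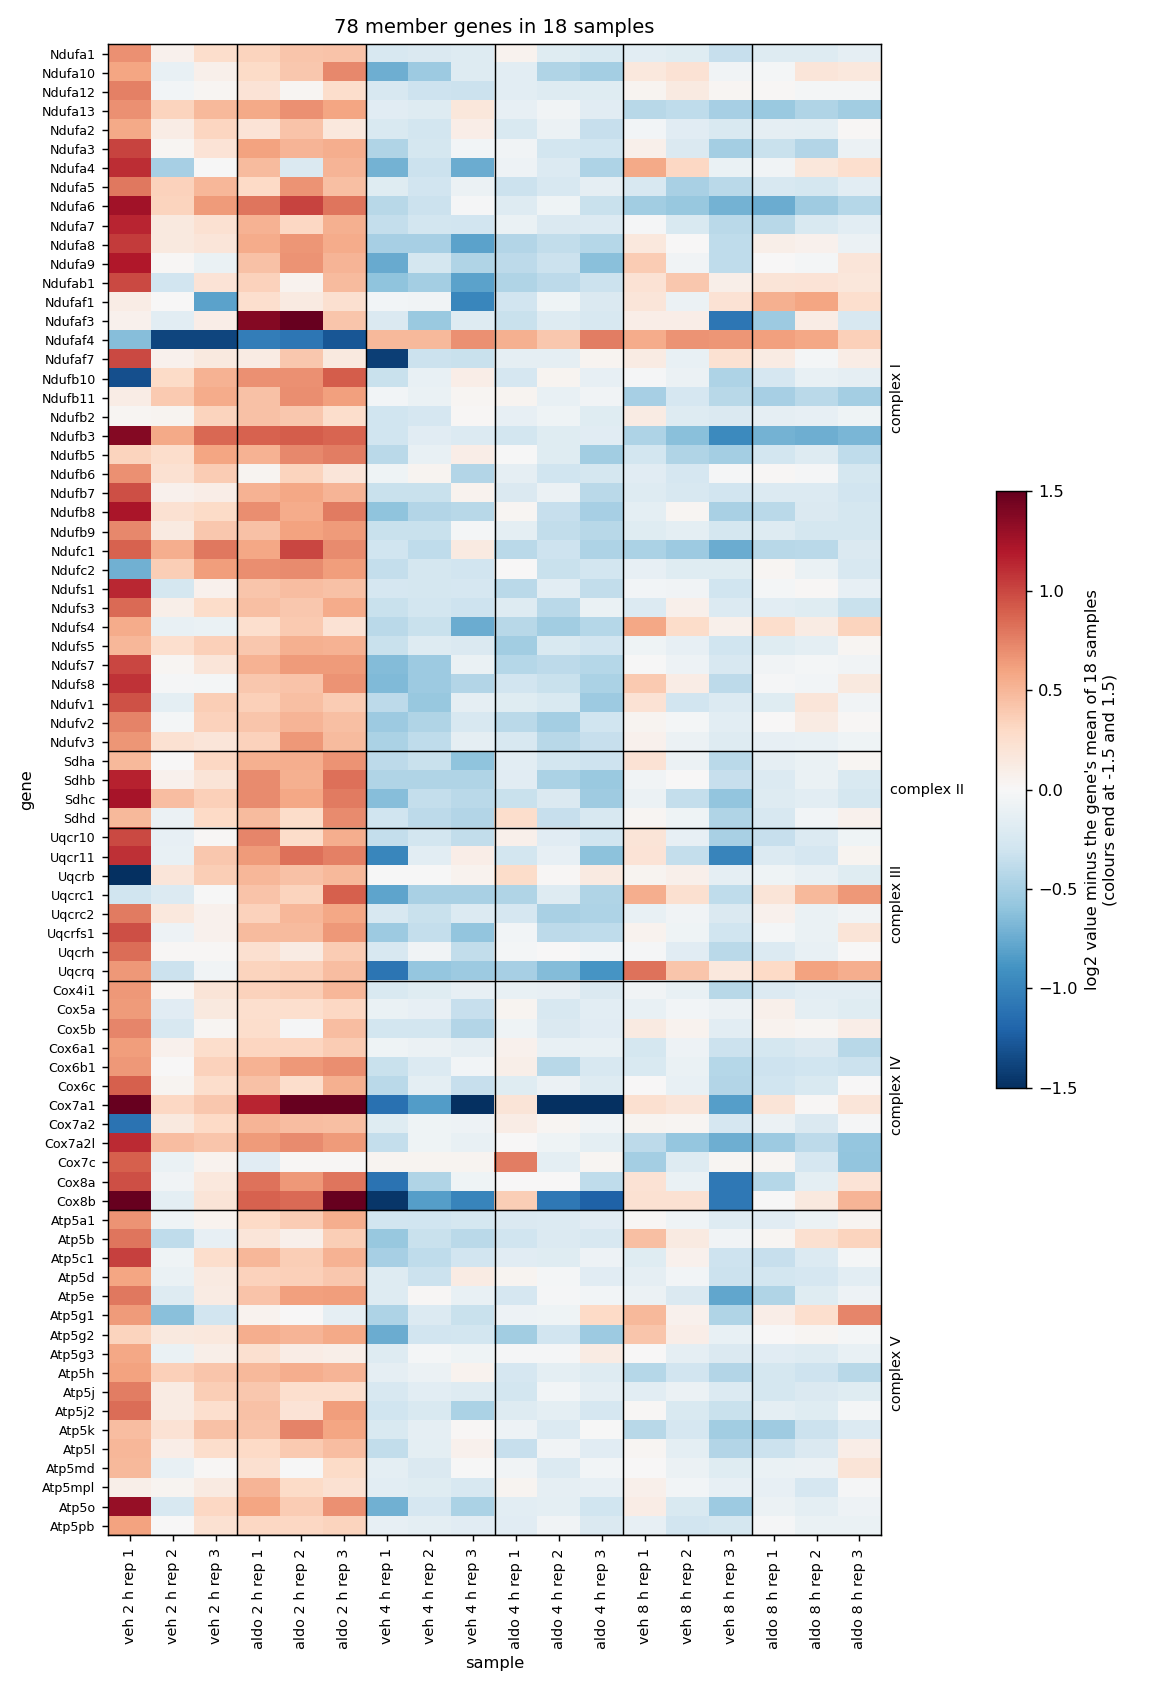
log2 value of each of the 78 genes (rows, by complex) in each of the 18 samples (columns, by group) minus the gene's mean over the samples; red is above and blue below that mean. The 2 h columns are mostly red and the 4 h columns mostly blue, vehicle 2 h replicate 1 is the reddest column with blue cells for Uqcrb, Cox7a2, Ndufb10 and Ndufc2, and Ndufaf4 runs the other way.

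Different probe sets of a gene mostly moved the same way. Of 40 genes with several probe sets kept, 35 had a single sign over all their probe sets from 2 to 4 h with vehicle and 38 with aldosterone. Over all 137 probe sets, 101 were lower and 2 higher with vehicle, and 106 were lower and 2 higher with aldosterone, where 22.6% and 18.2% of the 11236 probe sets tested were lower.

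The aldosterone question that the study was designed for was asked of the same genes. None of the 78 passed the test at 2, 4 or 8 h (limma, adjusted p under 0.05), where 0.0705%, 0.24% and 1% of all genes did. At an unadjusted p under 0.05 there were 9, 1 and 0 members, where 11%, 3.76% and 6.26% of all genes did. None passed for the mean of the 3 times, where 1.1% of all genes did and 4 members had an unadjusted p under 0.05 (8.43% of all genes). None passed in the F test of whether the aldosterone difference changed with time (0.155% of all genes). The 1 member with an unadjusted p under 0.05 there was Ndufaf3. None passed in the difference between 8 and 2 h (0.197%), where 4 members, Ndufaf3 included, had an unadjusted p under 0.05 (8.05% of all genes). Ndufaf3 passed the filter only through the aldosterone samples at 2 h. Its place in these counts, in the 9 at 2 h and in the 4 for the mean was thus built into its selection. The median difference over members, aldosterone minus vehicle, was 0.13 at 2 h, 0.07 at 4 h and 0.02 at 8 h, against -0.07, 0.01 and 0.01 over all genes. The median SE of a member's difference was 0.18. The members that differed by more than 0.5 were 8 at 2 h, Ndufaf3 included, 1 at 4 h and 0 at 8 h. None of these passed the test, among them Uqcrc1 at 2 h (0.72 ± 0.21). With 3 pools per group, a difference several times this SE in a single gene could thus go undetected.

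The members with the smallest p at 2 h were Ndufaf3, Uqcrc1 and Ndufb10. Ndufaf3 was at least 1.91-fold higher with aldosterone (limma adjusted p 0.206), but it was above 4 only in that group and passed the filter only through it. This difference was thus built into its selection and supports nothing. Uqcrc1 differed by 0.72 ± 0.21 and Ndufb10 by 0.93 ± 0.31 (limma adjusted p 0.233 and 0.28). Uqcrc1 was 7.09, 7.18 and 7.38 with vehicle and 7.82, 7.72 and 8.29 with aldosterone at 2 h, then 6.60, 6.91 and 6.90 against 6.94, 7.19 and 6.94 at 4 h, and 7.93, 7.63 and 7.01 against 7.59, 7.88 and 8.04 at 8 h. The arms were apart at 2 and 4 h and overlapped at 8 h; its mean difference over the 3 times was 0.42 ± 0.12, with adjusted p 0.156. Ndufb10 was 7.69 in vehicle 2 h replicate 1 and 9.30 and 9.53 in the other vehicle samples, against 9.70, 9.70 and 9.92 with aldosterone. At 4 h the smallest p belonged to Ndufaf7 (0.61 ± 0.27), Atp5h (-0.14 ± 0.09) and Sdhd (0.27 ± 0.18), and at 8 h to Ndufc1 (0.24 ± 0.15), Uqcrc1 (0.31 ± 0.21) and Ndufaf1 (0.35 ± 0.25), all with an adjusted p of 1. For the mean over times Ndufaf1 was 0.32 ± 0.14. Between 8 and 2 h the aldosterone difference changed by -0.35 ± 0.15 in Atp5mpl and by -0.75 ± 0.33 in Cox7a2.

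Vehicle 2 h replicate 1 bears on the 2 h comparison. Without it the median difference over members at 2 h was 0.30, against 0.04 over all genes. Of the 78 members 76 were above 0, while 3048 of all 7092 genes were below 0. None of the members passed the test, where 23 of all genes were higher and 6 lower. Ndufs1, a core iron-sulphur subunit, was closest (0.54 ± 0.12, limma adjusted p 0.0553). In that fit Uqcrfs1 was the 1 member that passed for the mean over times (0.30 ± 0.07, limma adjusted p 0.0459). Of all 7092 genes, 111 were higher and 35 lower by that test. The adjusted p of Uqcrfs1 over all samples was 0.708 and ranged from 0.0459 to 0.919 over the settings tried.

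**Figure D5:**
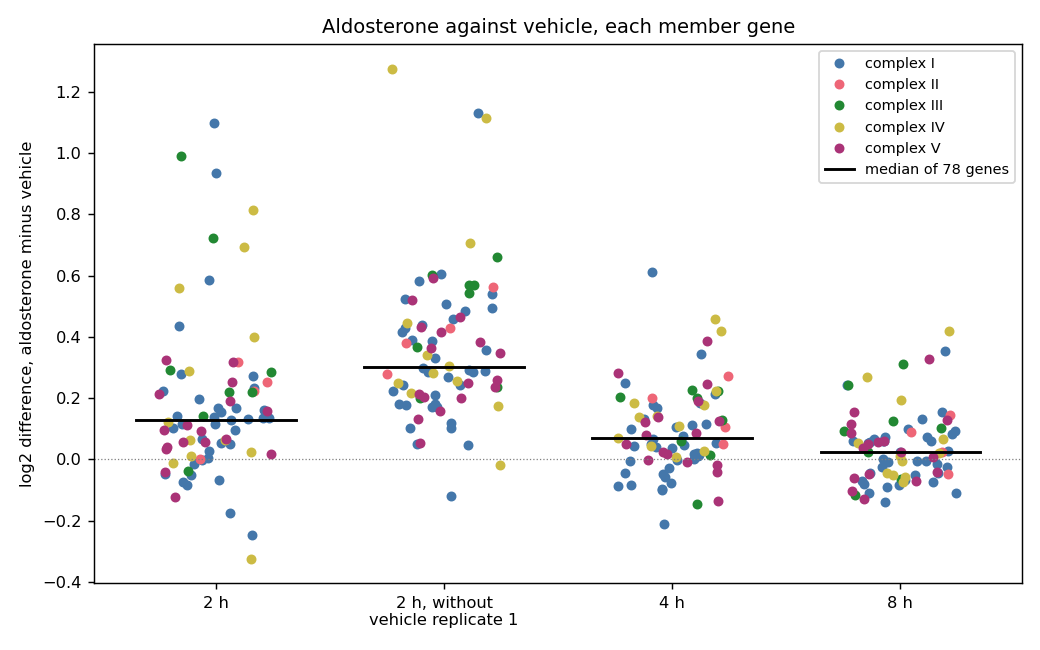
log2 difference of each of the 78 genes, aldosterone minus vehicle (vertical axis), at 2, 4 and 8 h and at 2 h without vehicle replicate 1, coloured by complex, with lines at the medians. The medians are 0.13, 0.30 without the replicate, 0.07 and 0.02, and no point passed the adjusted test.

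Other genes that serve the chain were taken from lists. The lists were chosen with earlier results of these data known. Of 42 tested assembly factors and electron carriers (57 listed), 2 rose and 19 fell at 4 h with vehicle, and 10 rose and 15 fell at 8 h (medians -0.44 and -0.07). Of all genes, 14.6% rose and 25.6% fell at 4 h, and 26.6% rose and 31.9% fell at 8 h. The 35.7% of this list that fell at 8 h is near that background. Cyc1, cytochrome c1 of complex III, fell by 0.67 ± 0.21 at 4 h and was -0.03 at 8 h; Cycs, the mobile carrier cytochrome c, rose by 0.72 ± 0.23 at 8 h. Higd1a, a hypoxia-inducible partner of complex IV, rose from 9.38, 10.07 and 10.57 at 2 h to 12.74, 12.43 and 12.44 at 8 h (2.53 ± 0.22), and Sco2, a copper chaperone for complex IV, from at or under 4 to 5.83, 5.85 and 5.78, at least 3.53-fold. Sdhaf4, which helps to assemble complex II, fell by 1.95 ± 0.24, and the electron transfer flavoprotein subunit Etfb by 1.31 ± 0.29.

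Of the 21 tested genes of mitochondrial biogenesis and genome expression (29 listed), 3 rose and 7 fell at 4 h with vehicle, and 7 rose and 6 fell at 8 h (medians -0.01 and 0.08). Of all genes, 14.6% rose and 25.6% fell at 4 h, and 26.6% rose at 8 h. The share that fell at 8 h, 28.6%, is near the 31.9% of all genes. The coactivator Ppargc1a was 6.38, 4.13 and 5.74 with vehicle and 5.63, 6.45 and 6.21 with aldosterone at 2 h, and at or under 4 in all 8 h samples of both arms, falls of at least 2.67-fold and 4.27-fold. Ppargc1b fell by 2.46 ± 0.29 with vehicle, from 7.44, 6.62 and 6.997 to 4.55, 4.52 and 4.61. Tfam, which packages and transcribes mitochondrial DNA, rose by 1.67 ± 0.30, and its partner Tfb2m by 1.28 ± 0.16, while the polymerase subunit Polg2 fell at least 5.49-fold. Nrf1 (-0.05 ± 0.23, adjusted p 0.873) and Gabpa, the DNA-binding subunit of GABP (0.23 ± 0.17, adjusted p 0.26), did not pass the test at 8 h with vehicle. Esrra, Ucp2 and Ndufa4l2 were not tested.

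Of the 22 tested citric acid cycle and pyruvate dehydrogenase genes (27 listed), 0 rose and 15 fell at 4 h with vehicle, and 3 rose and 9 fell at 8 h (medians -0.69 and -0.40). These falls are 68.2% and 40.9% of the list, against 25.6% and 31.9% of all genes. Idh2, a mitochondrial isocitrate dehydrogenase, fell by 2.33 ± 0.24 and the kinase Pdk4 by 1.55 ± 0.24 at 8 h, whereas Pdk1, which switches pyruvate dehydrogenase off, rose by 1.93 ± 0.16 and the malic enzyme Me2 by 0.54 ± 0.20. Of 9 uncoupling and antioxidant genes (14 listed), 2 rose and 4 fell at 8 h with vehicle, where 26.6% of all genes rose and 31.9% fell. Among them were Txn2 (0.84 ± 0.20), Sod2 (0.56 ± 0.19), Gpx1 (-1.11 ± 0.15) and Ucp1 (-2.23 ± 0.48).

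Mitochondrial ribosomal proteins and the import machinery had more rises than falls at 8 h. Of 71 mitochondrial ribosomal genes, 7 rose and 14 fell at 4 h with vehicle, and 30 rose and 5 fell at 8 h, where 26.6% of all genes were higher and 31.9% lower (list median 0.36). With aldosterone 29 rose and 5 fell at 8 h, where 29.2% of all genes were higher and 27.3% lower. Mrps18b rose by 2.36 ± 0.34 and Mrpl43 by 1.41 ± 0.28, whereas Mrpl34 fell by 0.92 ± 0.36 and Mrps36 by 0.89 ± 0.21. Of 29 import genes, 9 rose and 5 fell at 4 h, and 14 rose and 3 fell at 8 h (median 0.41). The small chaperones of the intermembrane space Timm8a1 and Timm10 rose by 2.998 ± 0.19 and 2.89 ± 0.16, while Tomm7 of the outer membrane fell by 1.14 ± 0.16 and Timm17b by 0.91 ± 0.19. The difference between these lists and the respiratory chain was not tested.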

How the data were processed

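The deposited values are log2 expression levels from Affymetrix arrays, processed by the authors with GCRMA (source: the submitters' processing notes). For its version, settings and annotation, the sources used here give nothing. The members and the gene lists were chosen with earlier results of these data known. A probe set was kept where 3 or more of the 18 samples had a log2 value over 4, and the kept probe set with the highest mean stood for its gene, which left 7092 genes. A linear model with 1 mean per group over all 18 samples was fitted with limma 3.58.1 in R 4.3.3 (empirical Bayes with an intensity trend, 12 residual degrees of freedom), with Benjamini-Hochberg adjustment over all genes and a threshold of 0.05. Errors are model standard errors with 3 pools per group, whose number limits the precision. Folds of genes at or under 4 in a whole group are bounds against 4. Named were the 3 members with the smallest p in each aldosterone comparison; in each complex, for 4 or 8 h against 2 h with vehicle, the largest rises and falls that passed the test and the smallest change; the Sdh genes, isoform pairs and members that are not subunits; the 3 members of highest and of lowest spread; and, of each other list, the largest changes. Ndufa10, Ndufa13, Ndufab1, Ndufb11, Ndufc2, Ndufs1, Ndufs4, Uqcrb and Atp5g2 were named after their values were seen. Same-numbered samples did not deviate together (mean correlation -0.00083 over 45 pairs, 0.00047 over 90 pairs of different number), so replicate numbers were not treated as pairs. The scripts were tested on simulated data. Alternatives changed the prior, filter, probe set rule, normalization, array weights, replicate block, samples fitted and floor.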

Additional observations from a re-analysis of the deposited data

Results flagged for a closer look

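Ndufa12, an accessory subunit of complex I, had an aldosterone minus vehicle log2 difference of 0.112 at 4 h and -0.0848 at 8 h, with every aldosterone sample on one side of the vehicle mean at 4 h and on the opposite side at 8 h. That difference between the times was not tested on its own; the F test over all 3 times gave an adjusted p of 0.983 in limma.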

How the results depend on the processing

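The counts are of members past the threshold in either direction. They are given here without the share of all genes in the same setting, so they describe only how stable the calls were. Array weights gave 32 calls for 8 h against 4 h with vehicle (15 as reported), 28 with aldosterone (13) and 1 for the mean aldosterone difference (0), which was Uqcrc1. No filter gave 9 for 8 h against 4 h with vehicle. Setting values under 4 to 4 gave 1 for aldosterone at 2 h, Ndufaf3, whose difference there was built into its selection by the filter. A fit limited to the groups compared gave 21 for 4 h against 2 h with vehicle (62), 20 for 8 h against 2 h with vehicle (43) and 24 for 8 h against 4 h with aldosterone. The cause was not tested beyond the smaller number of samples in that fit.

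Leaving out single samples gave, with vehicle, 49 to 68 calls for 4 h against 2 h, 31 to 53 for 8 h against 2 h and 6 to 29 for 8 h against 4 h. With aldosterone the ranges were 52 to 72 (65 as reported), 45 to 65 (54) and 5 to 24. For the mean aldosterone difference the range was 0 to 1. With the replicate number as a block the calls were 61, 43 and 15 with vehicle, 65, 55 and 13 with aldosterone, and 0 in each aldosterone comparison; the block moved no count by over 1.5 times.

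Some genes that did not pass the test changed sign. For 4 h against 2 h with vehicle, Cox7a2 was -0.20 with the mean of probe sets, -0.34 with array weights and -0.33 without vehicle 2 h replicate 1. Ndufb10 was -0.59 with array weights, and -0.52 and -0.05 without vehicle 2 h replicate 1 or vehicle 4 h replicate 3. Ndufaf1 was 0.33 with array weights, and 0.04 and 0.17 without those same samples, and Atp5g1 was 0.12 without vehicle 2 h replicate 1. For 8 h against 2 h with vehicle, Cox7a2 was -0.12 with the mean of probe sets, -0.23 with array weights and -0.28 without vehicle 2 h replicate 1. Ndufb10 was 0.0222 after a further quantile normalization, 0.0315 after median centring, and 0.21, 0.32 and 0.12 without vehicle 2 h replicate 2, vehicle 2 h replicate 3 or vehicle 8 h replicate 3. Without vehicle 2 h replicate 2, vehicle 2 h replicate 3 or vehicle 8 h replicate 1, Atp5b was -0.16, -0.03 and -0.06 and Ndufa4 was -0.29, -0.04 and -0.09. Ndufaf3, at or under 4 in both groups, was 0.10 without vehicle 8 h replicate 3. The opposite ends of these ranges, over single samples left out, were -0.51 for Atp5g1, 0.37 for Cox7a2, -0.42 for Ndufaf1 and 0.40 for Ndufb10 at 4 h, and 0.43 for Atp5b, 0.42 for Cox7a2, 0.51 for Ndufa4 and -0.50 for Ndufaf3 at 8 h. The cause was not tested.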
